A study of Mus musculus and Homo sapiens with 14 samples.

Results

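The comparison described here sets tumours labelled EL4 P3 against tumours labelled EL4 P0. EL4 is a mouse T-cell lymphoma line, and the labels give the tissue as tumour and the genotype as WT for all 4 libraries. Its members are 4 of the 14 samples of the series, 2 P0 and 2 P3 libraries, chosen by those labels, and every gene of their count table was considered. The other 10 samples are cultured EG7-OVA or NKYS cells given a solvent or an inhibitor of DNA methyltransferases, and of these only the 2 EG7-OVA libraries given the solvent DMSO appear below. The labels say neither what P0 and P3 stand for, nor the host strain, age, site or treatment of the tumours, nor whether replicates came from separate animals. The p-values therefore measure the spread between these libraries, which may be technical.

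T cells read antigen through the T-cell receptor, a pair of chains joined to the CD3 complex, and the kinases Lck and Fyn pass the signal on. During maturation in the thymus, Notch receptors and transcription factors such as Tcf7 and Bcl11b set T-cell identity, and each cell settles on the CD4 or the CD8 co-receptor. A lymphoma line keeps part of that identity, and a tumour adds macrophages, B cells, fibroblasts, vessels and other host cells to the RNA.

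T-cell markers summed to less in both P3 libraries (1277 and 1402 CPM) than in both P0 libraries (1916 and 1689 CPM). Cd3e, a member of that list, overlapped between the groups. The P3 tumours held more Cd4, a call lost in some settings, and very little Cd8a. They held less RNA of the T-cell factor Satb1, of Notch3 and Notch1, and of lymphoid progenitor genes, and more of Zbtb7b, Maf and Rora. Transcripts of chromosomes 5 and 18 were shifted upwards along nearly their whole length. In P3, 53 genes picked by respiratory chain symbols, the desaturase genes Scd1 and Scd2 and several heat shock genes were lower. Long non-coding RNAs were more often higher than lower. Host macrophage and B-cell markers were lower in P3 as well.

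Levels are read counts scaled to a common library size (CPM) per library, P0 replicates 1 and 2 first. Differences are log2 fold changes of P3 against P0 with their standard error (SE) from edgeR's quasi-likelihood test, n = 2 libraries per group. A gene was called at a Benjamini-Hochberg adjusted p of 0.05 over all genes tested. Of 19993 genes tested, 7736 (38.7%) were called, 3766 (18.8%) higher and 3970 (19.9%) lower, with a median log2 fold change of -0.00186. Counts for each list below are read against these shares. Libraries held 21621580 to 25328708 reads. Across genes the P0 pair correlated at r = 0.991, the P3 pair at 0.970 and libraries of different groups at 0.898 to 0.906. Without P0 replicate 1 or P0 replicate 2, where the spread comes from the P3 pair alone, edgeR called 0 genes (5571 and 5768 at an unadjusted p under 0.05). No edgeR call named below held in those settings. DESeq2 without the same libraries called 1032 higher and 1269 lower, and 1042 higher and 1164 lower, and its counts are given beside the lists.

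P3 replicate 1 stood apart in its skeletal muscle genes, and less so in other lists given below. Skeletal muscle genes summed to 100.4 and 100.8 CPM in P0, 2997 CPM in P3 replicate 1 and 30.3 CPM in P3 replicate 2. Ttn, the giant spring protein of the sarcomere, was at 49.9, 53.4, 1793 and 12.9 CPM, and none of the 13 tested muscle genes was called (Ttn adjusted p = 0.126). Without that library 7 muscle genes were lower in P3 and none was higher, and without P3 replicate 2 the count was 17 higher and none lower. Myo18b, a myosin of striated muscle at 0.331, 0.358, 21.8 and 0.878 CPM, was called higher (adjusted p = 0.0492) on the strength of that library.

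Xist, the RNA that silences 1 X chromosome in female cells, was at 198, 273, 123 and 64.3 CPM in the tumours and at 0.237 and 0.314 CPM in the EG7 DMSO libraries. EG7-OVA is a derivative of EL4 that carries ovalbumin, grown in culture without a host. Its table was normalised separately, so only levels are set beside those of the tumours. Its 2 libraries differed widely from each other for some genes, such as Cd4 (1.76 and 43.5 CPM), Notch3 (0 and 36.0 CPM) and Notch1 (0.903 and 16.7 CPM), and why was not tested. No read fell on 5 genes of the Y chromosome in any EL4 library.

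Host cell markers differed in level, and in bulk RNA fewer cells of a type and less RNA per cell cannot be told apart. Macrophage markers summed to 1305 and 1623 CPM in P0 and 334.6 and 320.4 CPM in P3, with 8 of 8 tested genes lower (8 and 7 in DESeq2 without P0 replicate 1 and 2). B-cell markers summed to 166.3 and 312.5 against 27.0 and 26.3 CPM, with 6 of 6 lower (5 in each of those settings). Fibroblast markers went from 2514 and 2622 CPM to 967 and 299 CPM, with 2 of 6 lower (0 in each of those settings, 6 without P3 replicate 1 and 5 without P3 replicate 2 in edgeR). Neutrophil markers summed to 2.98 and 2.90 CPM in P0 and 13.1 and 52.5 CPM in P3. Of the 4 that passed the filter 3 were called by edgeR and 1 by limma-voom, but genes near 0 in P0 could pass only by being high in P3, so this count carries no weight. Endothelial markers gave 0 called of 5 and sums of 199.7, 197.9, 194.7 and 134.0 CPM. T-cell markers, the check on the lymphoma itself, summed to 1916, 1689, 1277 and 1402 CPM. Of 7 tested 1 was higher and 2 were lower (median -0.37), 5 were lower without P3 replicate 2, and DESeq2 called 0 without P0 replicate 1 and 2 lower without P0 replicate 2.

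**Figure D1:**
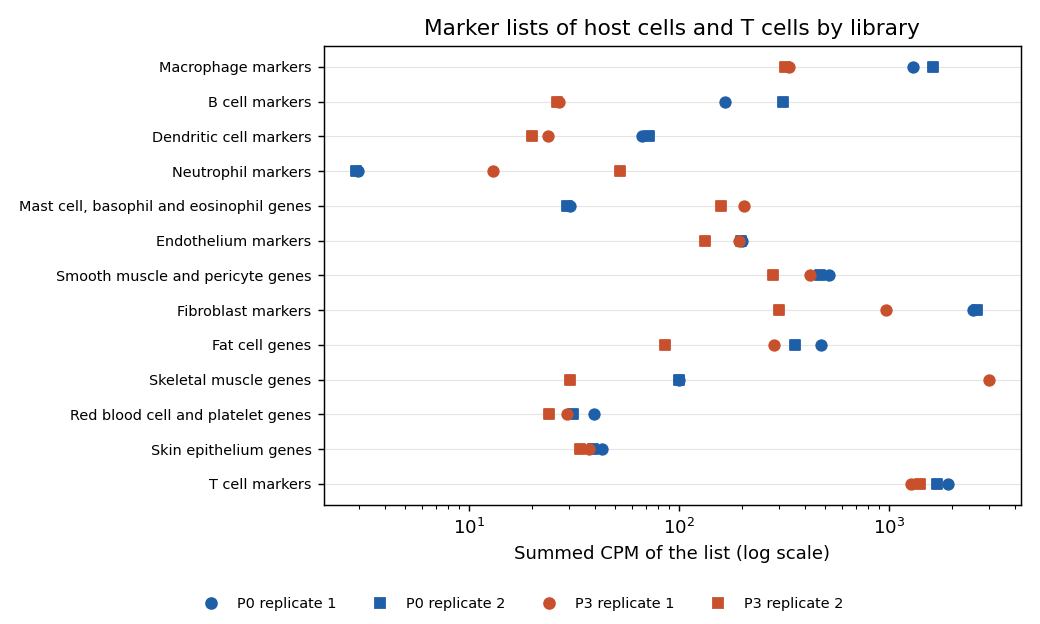
Summed CPM of each marker list on a log axis, 1 point per library, with P0 in blue and P3 in red. Macrophage, B-cell and fibroblast sums lie lower in both P3 libraries than in both P0 libraries, and the muscle sum of P3 replicate 1 (2997 CPM) lies far to the right of the other 3.

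Levels of Cd3e overlapped between the groups while co-receptor genes parted. Cd3e belongs to the T-cell marker list, whose sum was lower in both P3 libraries than in both P0 libraries. Cd3e, a signalling chain of the complex, was at 207, 186, 172 and 206 CPM (-0.05 ± 0.12, adjusted p = 0.747), so the groups overlapped. Cd4, the co-receptor of helper T cells, was at 422, 405, 576 and 664 CPM and rose by 0.58 ± 0.12 (adjusted p = 0.016). The Cd4 call was lost in edgeR under the replicate block (adjusted p = 0.0512). It was also lost in DESeq2 without P0 replicate 1 or 2, at log2 fold changes of 0.59 and 0.54. Cd8a, a chain of the co-receptor of cytotoxic T cells, was at 16.7 and 20.5 CPM in P0 and 0.177 and 0.0878 CPM in P3 (-7.08 ± 0.34, adjusted p = 0.000547). Cd8a was listed at 0 in both EG7 DMSO libraries. A level of that size in P0 is a small fraction of the Cd4 level, and whether it came from EL4 cells or from host T cells was not tested.

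Among the 20 tested genes of the T-cell surface list, 4 rose, 6 fell and 10 missed the threshold (median -0.23, all genes -0.00186). Cd44, the hyaluronan receptor of activated T cells, rose from 98.9 and 121 to 303 and 267 CPM (1.38 ± 0.13). Cd6, an adhesion receptor of T cells (-1.62 ± 0.17), Ly6c2, a surface antigen of lymphoid and myeloid cells (-2.84 ± 0.35), and Thy1, a surface glycoprotein of mouse T cells (-0.57 ± 0.14), fell. Cd5, a brake on receptor signalling, rose by 0.55 ± 0.11 and Cd69, an early activation marker, by 0.73 ± 0.15. Neither kept its call in DESeq2 without P0 replicate 1 or 2 (Cd5 at 0.63 and 0.43, Cd69 at 0.62 and 0.79). DESeq2 called 1 higher and 5 lower without P0 replicate 1, and 1 higher and 6 lower without P0 replicate 2.

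The count table holds 1 row for each whole antigen-receptor locus. Reads of any gene inside a locus can fall on that row, and variable segments could not be told apart. Tcra, the alpha locus, was at 579, 586.5, 1205 and 937 CPM (0.88 ± 0.16), and Tcrb, the beta locus, at 815, 752, 1478 and 1601 CPM (0.97 ± 0.13). Igk, the kappa light chain locus, rose from 3179 and 3124 to 8641 and 6116 CPM (1.23 ± 0.24), and Igh, the heavy chain locus, from 244 and 333 to 889 and 1050 CPM (1.75 ± 0.19). Igl, the lambda light chain locus, fell from 25.3 and 52.2 to 0.752 and 1.27 CPM (-5.25 ± 0.48), a row added after its values were seen. Igk and Igh were thus higher in the same libraries in which Igl and all 6 B-cell markers were lower. Of the constant genes of the gamma chain, Trgc1 (0.89 ± 0.21) and Trgc4 (0.50 ± 0.09) rose.

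Genes that carry the receptor signal were more often higher than lower. Of 30 tested, 11 rose, 3 fell and 16 missed the threshold, with a median of 0.17. Fyn, a Src-family kinase, was at 55.7, 61.8, 144 and 148 CPM (1.31 ± 0.09), and Txk, a Tec-family kinase, at 8.14, 8.44, 43.7 and 27.8 CPM (2.11 ± 0.24). Ubash3a, a phosphatase that dampens the signal (1.03 ± 0.10), and the adaptors Lcp2 (0.61 ± 0.09) and Skap1 (0.57 ± 0.09), rose. Rasgrp1, which activates Ras downstream of the receptor, fell from 320 and 309 to 133 and 108 CPM (-1.38 ± 0.12). Lck (-0.53 ± 0.11) and the phosphatase gene Ptpn6 (-0.79 ± 0.11) were lower as well. The balance between both Src-family kinases moved, with Fyn rising and Lck falling in both P3 libraries. DESeq2 called 3 higher and 2 lower without P0 replicate 1, and 4 higher and 3 lower without P0 replicate 2.

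**Figure D2:**
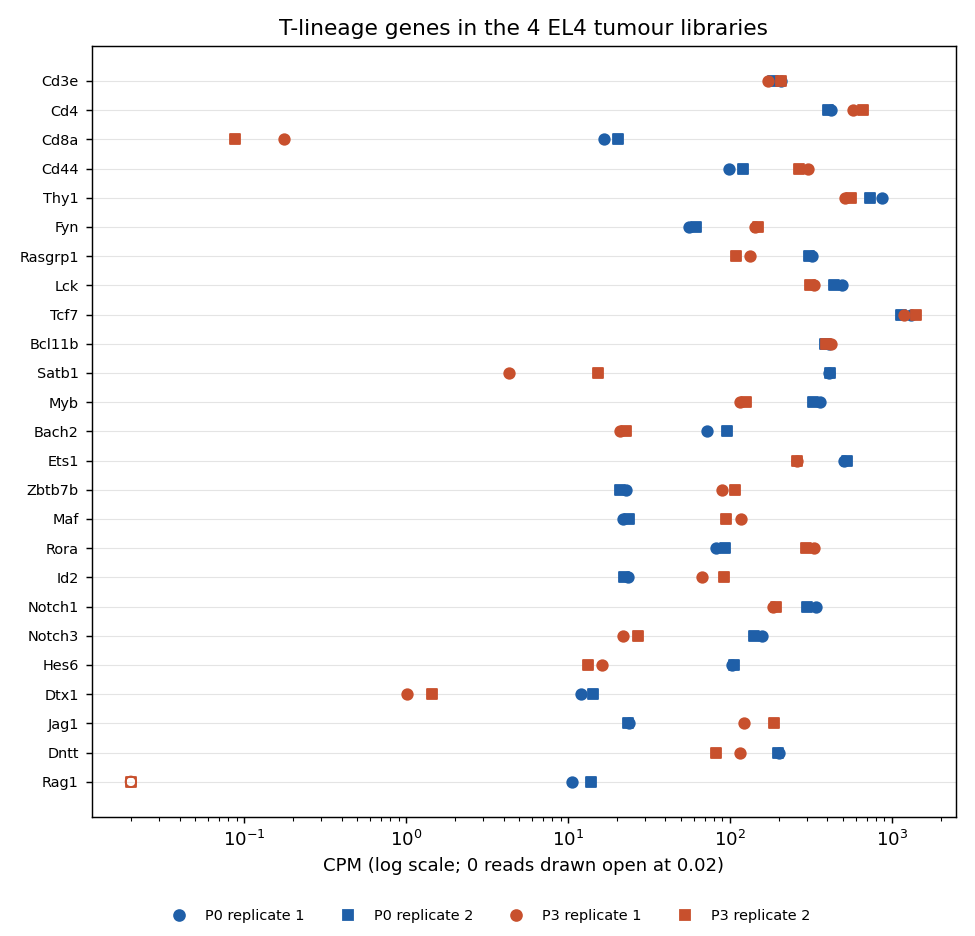
CPM of 25 T-lineage genes on a log axis, 1 point per library, with P0 in blue and P3 in red, and 0 reads drawn as an open symbol at 0.02 CPM. Cd3e, Tcf7 and Bcl11b overlap between groups, Satb1, Cd8a and Notch3 lie far lower in P3, and Zbtb7b, Maf, Rora and Jag1 lie higher.

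Genes of thymocytes and lymphoid progenitors were lower or did not pass. Of 25 listed genes 20 passed the filter, and of these 11 fell, 0 rose and 9 missed the threshold, with a median of -1.33. Genes near 0 in P3, such as Rag1 and Bcl11a, could pass the filter only by being high in P0, so the count leans to falls. The 24 listed genes with a read, whether tested or not, summed to 1075, 1110, 880.6 and 681.8 CPM. Rag1, which cuts DNA to join receptor segments, was at 10.6 and 13.8 CPM in P0 and had no read in P3, at least 187-fold lower against a floor of 3 reads over the group. Dntt, the polymerase that adds bases at those joins, was at 200, 199, 116 and 82.6 CPM (-1.01 ± 0.17). Bcl11a, a factor of lymphoid progenitors and B cells (-5.78 ± 0.58), Mef2c, a factor of B-lymphoid and myeloid cells (-3.44 ± 0.43), and Spi1, which encodes PU.1 (-1.72 ± 0.19), fell. Bcl11a and Mef2c are also expressed by B cells and Spi1 by macrophages, whose markers fell in the same libraries, and their part in the result was not tested. DESeq2 called 7 lower without P0 replicate 1 and 6 without P0 replicate 2.

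Transcription factors of T-cell states moved both ways. Of 41 tested, 9 rose, 15 fell and 17 missed the threshold, with a median of 0.0028. Satb1, a chromatin organiser of thymocytes, stood at 410 and 416 CPM in P0 and 4.33 and 15.2 CPM in P3 (-5.40 ± 0.56, adjusted p = 0.00281). Satb1 was at 0 and 84.3 CPM in the EG7 DMSO libraries, which thus differed from each other. Myb, a factor of dividing progenitors, fell from 358 and 326 to 116 and 126 CPM (-1.50 ± 0.10). Bach2, a repressor that restrains effector genes (-1.94 ± 0.16), Sox4, an HMG-box factor (-1.24 ± 0.11), and Ets1, an ETS factor of lymphocytes (-0.98 ± 0.10), fell.

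The factors that rose included Zbtb7b, which directs thymocytes to the CD4 lineage and represses Cd8 genes. It was at 22.9, 20.9, 89.6 and 108 CPM (2.17 ± 0.13, adjusted p = 0.000851). Maf, a factor of helper T cells, rose from 21.9 and 23.9 to 118 and 95.1 CPM (2.21 ± 0.14), while the EG7 DMSO libraries held 0.0475 and 0.471 CPM. Rora, an orphan nuclear receptor of helper and innate lymphoid cells, rose from 82.1 and 93.3 to 332 and 294 CPM (1.83 ± 0.12). Id2, an inhibitor of E proteins (1.80 ± 0.17), and Ikzf3, an Ikaros-family factor (0.86 ± 0.12), rose as well. Tcf7 was at 1316, 1136, 1185 and 1415 CPM (0.08 ± 0.16, adjusted p = 0.692), and Bcl11b at 410, 384, 423 and 393 CPM (0.04 ± 0.10, adjusted p = 0.788). DESeq2 called 6 higher and 10 lower without P0 replicate 1, and 5 higher and 9 lower without P0 replicate 2.

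In the Notch pathway, Notch3, Notch1 and Hes6 fell, and the ligand genes Jag1 and Jag2 rose. Notch receptors are cut after binding a ligand on a neighbouring cell, and the freed part joins Rbpj to switch on targets. Of 31 tested genes, 5 rose, 10 fell and 16 missed the threshold (median -0.05). Notch3 fell from 157 and 142 to 21.9 and 26.9 CPM (-2.61 ± 0.14), and Notch1 from 338 and 301 to 184 and 194 CPM (-0.76 ± 0.10). Notch2 was at 222, 239, 230 and 260 CPM (0.09 ± 0.11, adjusted p = 0.53). Dtx1 (-3.41 ± 0.27) and Dtx4 (-1.87 ± 0.10), E3 ligases that bind Notch, and Hes6, a Hes-family factor at 103, 106, 16.3 and 13.4 CPM (-2.81 ± 0.13), fell. Among ligands, Jag1 rose from 23.7 and 23.5 to 122 and 187 CPM (2.71 ± 0.22) and Jag2 by 1.25 ± 0.19, and Rbpj rose by 0.74 ± 0.12. Notch3 also marks pericytes, and 4 of 11 tested smooth muscle and pericyte genes were lower, Notch3 among them. The pericyte gene Rgs5 did not pass (-0.38 ± 0.18). DESeq2 called 3 higher and 6 lower without either P0 library in turn.

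Of 34 tested Wnt pathway genes, 4 (11.8%) were higher, 8 (23.5%) lower and 22 not passed (median -0.44). The shares of all genes were 18.8% and 19.9%. Axin2, a feedback target of the pathway, rose from 21.4 and 19.5 to 45.0 and 39.5 CPM (1.05 ± 0.12), and Apc, a scaffold that marks beta-catenin for breakdown, by 0.78 ± 0.09. The receptors Fzd5 (59.2, 62.9, 9.73 and 11.5 CPM, -2.52 ± 0.13) and Fzd7 (-2.29 ± 0.31) fell, as did Ctnnb1, which encodes beta-catenin (-0.36 ± 0.10). Sfrp2, a secreted Wnt antagonist of fibroblasts (-3.11 ± 0.57), was listed at 0 in both EG7 DMSO libraries and fell with the fibroblast markers. DESeq2 called 2 higher and 3 lower without P0 replicate 1, and 3 of each without P0 replicate 2.

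Among the largest rises were genes that T cells are not known for. The rule took the 20 genes per direction with the largest change among those called, without overlap and with at least 5 CPM in the higher group. Fras1, an extracellular matrix protein of basement membranes, was at 27.2, 21.5, 831 and 812 CPM (5.08 ± 0.16, adjusted p = 0.000237). Zfp462, a zinc finger protein that binds heterochromatin, was at 5.59, 5.09, 354 and 302 CPM (5.94 ± 0.14), and the EG7 DMSO libraries held 128 and 122 CPM. Magi2, a scaffold protein of cell junctions, rose from 2.27 and 2.31 to 119 and 82.1 CPM (5.46 ± 0.24). Ankrd6, an ankyrin repeat protein, rose from 0.947 and 1.35 to 78.9 and 38.7 CPM (5.66 ± 0.45). Glyat, a glycine acyltransferase of liver and kidney, held 669 reads over the P3 pair against 2 over the P0 pair, which makes a ratio of 340.7 with a 95% interval, for counting error only, of 93.9 to 2819. Gdf9, a growth factor of the oocyte, rose by 5.24 ± 0.45. Both P3 libraries lay above both P0 libraries for each, as the rule required.

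Of the 20 largest rises 18 were below 5 CPM in both EG7 DMSO libraries, and 2, Zfp462 and the receptor phosphatase gene Ptprh, were above it in both. Among the 20 largest falls 15 were below it in both. Of all 19993 genes tested, 11460 were at 1 CPM or more in both. The share of all tested genes below 5 CPM there was not counted, so these counts are not read as a trait of the rises or falls. Some rises were carried unevenly by the P3 pair: Grik2, a kainate receptor, was at 3.27 and 14.8 CPM, and Lratd1 at 2.74 and 9.17 CPM. Among genes with the largest gains in CPM, Pcdh9, a protocadherin of neurons, went from 279 and 328 to 1709 and 1452 CPM (2.38 ± 0.16) against 0 and 1.10 CPM in EG7 DMSO. Ahnak, a very large scaffold protein (1.28 ± 0.22), Slc39a6, a zinc importer (1.20 ± 0.14), Slc9a9, a sodium-proton exchanger of endosomes (1.56 ± 0.12), Nbas, a tethering factor of the Golgi (1.76 ± 0.17), and Ero1a, an oxidase of the endoplasmic reticulum (1.71 ± 0.20), rose as well.

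Among the 20 largest falls, most were low in EG7 DMSO cells, and 4 were above 5 CPM in both libraries. Mylk4, a myosin light chain kinase, was at 35.5 and 34.1 CPM in P0, 0.531 and 0 CPM in P3 (-7.01 ± 0.71), and 462 and 482 CPM in EG7 DMSO. Add2, a spectrin-binding adducin, was at 20.7, 21.6, 0.265 and 0.0439 CPM (-7.05 ± 0.47) and at 65.2 and 60.5 CPM in EG7 DMSO. Esrrb, an orphan nuclear receptor of stem cells, had 283 reads over the P0 pair against 1 over the P3 pair, which makes a ratio of 277.9 with a 95% interval of 49.5 to 11010, and stood at 24.0 and 17.5 CPM in EG7 DMSO. Of the 20 largest falls, 15 were below 5 CPM in both EG7 DMSO libraries and 4 were above it in both, Mylk4, Add2, Esrrb and Col22a1. Xkr7, of the XK scramblase family (10.8, 13.2, 0.0885 and 0.0878 CPM, -7.00 ± 0.34), and Camkv, a kinase-like protein of neurons (25.6, 25.3, 0 and 0.263 CPM, -7.53 ± 0.62), were near 0 in P3 and low or absent in EG7 DMSO. Camkv, Mylk4 and the B-cell genes Ms4a1 and Fcmr kept no DESeq2 call without either P0 library.

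**Figure D3:**
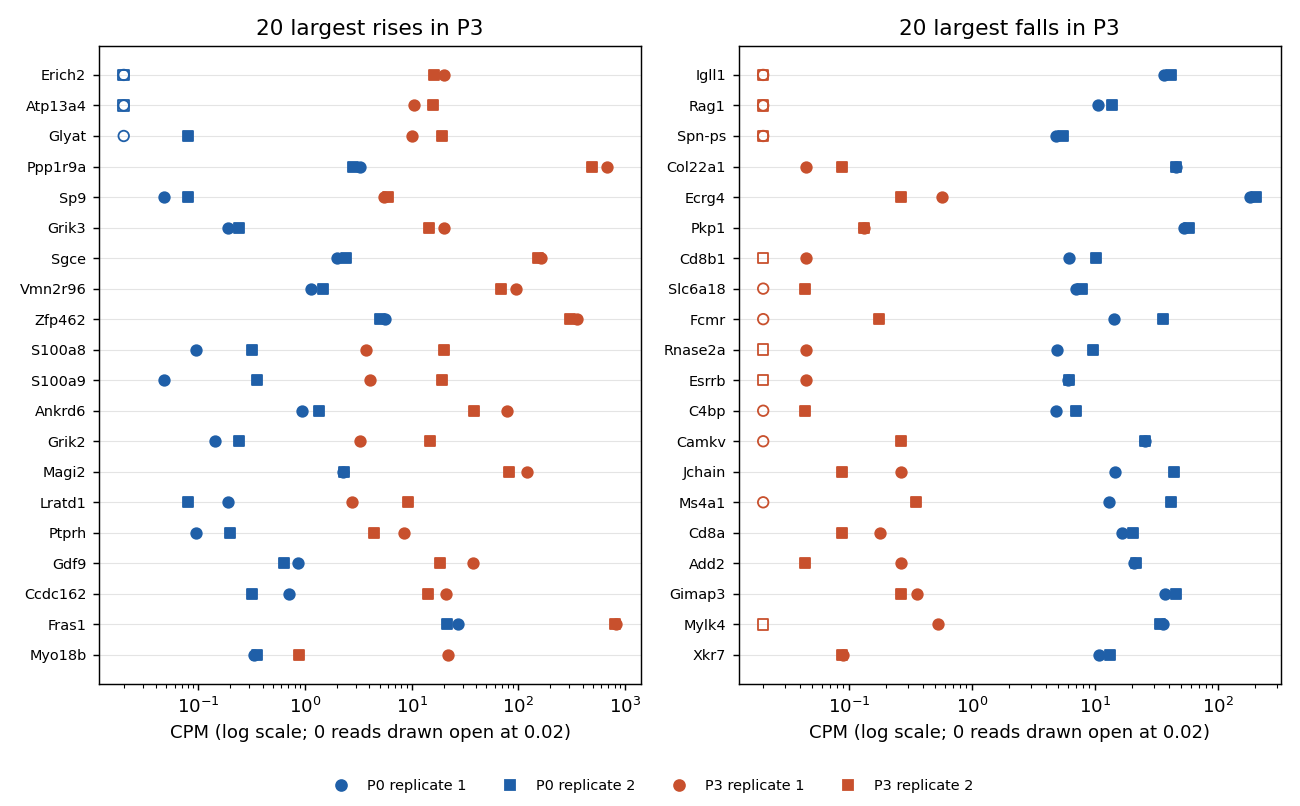
CPM on a log axis for the 20 largest rises (left) and falls (right), 1 point per library, with P0 in blue, P3 in red and 0 reads drawn as an open symbol at 0.02 CPM. Groups do not overlap for any gene, by the rule that chose them, and both libraries of a group lie close together for most.

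The promoters of Ppp1r9a, which rose, and of Satb1, Rag1 and Gimap3, which fell, are shown. They are printed because the series concerns inhibitors of DNA methylation, which acts on CG dinucleotides. The sequences are RefSeq windows of 300 bases on GRCm38.p6, from 250 bases before to 50 after a transcription start, in the direction of the gene. Each is printed 5′ to 3′ with every CG in capitals, and where a gene has several starts the one with the most CG is given. Ppp1r9a had 2 starts and Satb1 had 5, while Rag1 and Gimap3 had 1 each. The shares below rank that start against all single windows. Methylation was not measured in these tumours. Ppp1r9a, an actin-binding neurabin that went from 3.31 and 2.83 to 682 and 489 CPM, lies on the plus strand (chr6:4903061-4903360) and holds 48 CG, a number reached by 1.22% of all 32851 windows in the table. Satb1, described above, lies on the minus strand (chr17:51832598-51832897) and holds 45 CG, reached by 1.93%. Rag1 lies on the minus strand (chr2:101649483-101649782) and holds 3 CG, reached by 76.7%. Gimap3, a GTPase of lymphocytes that went from 36.8 and 45.2 to 0.354 and 0.263 CPM, lies on the minus strand (chr6:48770802-48771101) and holds 2 CG, reached by 85.9%.
Ppp1r9a: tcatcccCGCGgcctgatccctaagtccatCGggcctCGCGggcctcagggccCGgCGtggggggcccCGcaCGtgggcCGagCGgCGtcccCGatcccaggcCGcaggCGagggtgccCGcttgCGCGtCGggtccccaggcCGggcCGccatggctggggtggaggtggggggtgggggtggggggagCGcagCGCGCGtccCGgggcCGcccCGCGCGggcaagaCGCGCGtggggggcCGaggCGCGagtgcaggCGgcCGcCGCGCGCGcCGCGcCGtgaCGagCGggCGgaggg
Satb1: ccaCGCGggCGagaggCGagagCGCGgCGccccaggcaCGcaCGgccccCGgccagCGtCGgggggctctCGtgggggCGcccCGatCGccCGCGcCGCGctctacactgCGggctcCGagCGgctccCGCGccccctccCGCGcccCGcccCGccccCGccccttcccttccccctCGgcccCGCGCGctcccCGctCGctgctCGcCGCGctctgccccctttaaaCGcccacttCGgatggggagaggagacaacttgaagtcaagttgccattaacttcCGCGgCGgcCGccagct
Rag1: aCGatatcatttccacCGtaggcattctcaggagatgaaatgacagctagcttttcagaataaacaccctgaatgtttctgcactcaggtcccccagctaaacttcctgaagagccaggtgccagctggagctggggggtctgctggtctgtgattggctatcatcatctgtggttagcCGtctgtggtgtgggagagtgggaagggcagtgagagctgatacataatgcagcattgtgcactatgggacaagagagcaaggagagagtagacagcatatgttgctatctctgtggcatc
Gimap3: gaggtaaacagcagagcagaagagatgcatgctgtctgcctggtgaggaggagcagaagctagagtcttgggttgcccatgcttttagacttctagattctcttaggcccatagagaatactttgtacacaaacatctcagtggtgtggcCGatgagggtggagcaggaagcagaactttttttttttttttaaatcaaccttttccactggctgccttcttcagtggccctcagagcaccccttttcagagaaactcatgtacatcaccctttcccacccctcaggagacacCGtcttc
Among these 4, a gene that rose and a gene that fell both carry CG-dense windows, and both CG-poor windows belong to genes that fell. The 4 genes were picked without a rule, so this split says nothing about called genes in general. A window could be matched for 68.1% of tested genes, and no comparison over all called genes was made.

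Gimap3 was 1 of 5 Gimap genes that fell, a family of GTPases that sits in 1 cluster and was chosen after its values were seen. Gimap4 (38.3, 44.7, 2.92 and 2.54 CPM, -3.92 ± 0.17), Gimap7 (-3.04 ± 0.44), Gimap8 (-1.50 ± 0.19) and Gimap6 (-0.99 ± 0.21) fell with it, and 3 of 8 tested did not pass (5 and 4 lower in DESeq2 without P0 replicate 1 and 2). Gimap9 was at 25.2, 24.8, 28.4 and 24.97 CPM (0.09 ± 0.12, adjusted p = 0.565) and at 16.4 and 15.4 CPM in EG7 DMSO, where the 5 that fell were below 1 CPM. In the 500 kb to either side of the 20 largest falls, 102 of 325 tested neighbours (31.4%) were lower, against 19.9% of all genes, and beside the 20 largest rises 57 of 204 (27.9%) were higher, against 18.8%. Neighbours of genes that lie close to each other were counted for each of them. Chosen genes within that distance also counted as neighbours of each other, although the rule had already required their call. Some of the rises lie on chromosome 5, where 41.6% of all tested genes were higher. Whether changed genes cluster beyond this was not tested.

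Whole chromosomes differed in their typical change. On chromosome 5, 523 of 1258 tested genes (41.6%) were higher and 110 (8.74%) lower, with a median log2 fold change of 0.45. On chromosome 18, 210 of 532 (39.5%) were higher and 61 (11.5%) lower, with a median of 0.41. On chromosome 12, 202 of 740 (27.3%) were higher and 89 (12.03%) lower, with a median of 0.23. The medians of the other 17 chromosomes lay between -0.19 and 0.026, lowest on X, and their share of higher genes between 11.9% and 17.9%. Genes of a chromosome are not replicates, so these are descriptions without a test. Among genes named as higher in other paragraphs, Fras1, Magi2, Txk, Rbpj, Cyp51 and Abcb1b lie on chromosome 5. Apc and Slc39a6 lie on chromosome 18. Their rises are to be read beside the shares of those chromosomes.

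The shift covered chromosome 5 from end to end. All 25 windows of 50 neighbouring tested genes had a median above 0 (0.067 to 0.84), and 19 were above 0.3. On chromosome 18, 9 of 10 windows were above 0 and 8 above 0.3, and 1 window, which ran from Dtwd2 to Ndst1, was at -0.24. On chromosome 12, 13 of 14 were above 0 and 6 above 0.3. On the other 17 chromosomes 122 of 333 windows were above 0 and 6 above 0.3. Among genes at a mean of 5 CPM or more the medians of chromosomes 5, 18 and 12 were 0.40, 0.42 and 0.15, and among genes at 1 CPM or more in both EG7 DMSO libraries they were 0.39, 0.44 and 0.17. The last set leaves out genes at or near 0 in cultured cells of the lineage. DNA copy number was not measured.

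Both P3 libraries carried the shift of chromosomes 5 and 18. Without P3 replicate 1 or P3 replicate 2 the median of chromosome 5 was 0.45 and 0.42, and that of chromosome 18 was 0.41 and 0.39. For chromosome 12 it was 0.33 without P3 replicate 1 and 0.12 without P3 replicate 2, so the libraries differed. Within the P3 pair the median log2 difference of replicate 2 from replicate 1 was 0.23 on chromosome 12, 0.019 on chromosome 5 and 0.0021 on chromosome 18. Within the P0 pair all 20 chromosomes lay between -0.040 and 0.033.

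Some abundant genes of these chromosomes rose by modest amounts. On chromosome 5, Fryl, a homologue of the Furry scaffold, rose from a mean of 525 to 977 CPM (0.90), Ep400, a chromatin remodelling ATPase, from 436 to 676 CPM (0.63), and Atp2a2, a calcium pump of the endoplasmic reticulum, from 541 to 878 CPM (0.70). Ptpn13, a large tyrosine phosphatase, rose more, from 38.1 to 336 CPM (3.14), as did Fras1 (5.08), described above. On chromosome 18, Nr3c1, the glucocorticoid receptor, was at 457, 470, 967 and 829 CPM (0.95 ± 0.13), Rnf125, an E3 ligase, rose from 270 to 629 CPM (1.22), and Smad2 (0.69 ± 0.08) and Smad4 (0.44 ± 0.10), transducers of TGF-beta signals, rose. These genes were chosen after their values were seen, from the largest gains in CPM on each chromosome or from the lists, so they show rises only. Other abundant genes did not rise. Atp5a1 of chromosome 18 (means of 1103 CPM in P0 and 983 CPM in P3) did not pass. Nor did a ribosomal protein gene of chromosome 5 (2697 and 2362 CPM).

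**Figure D4:**
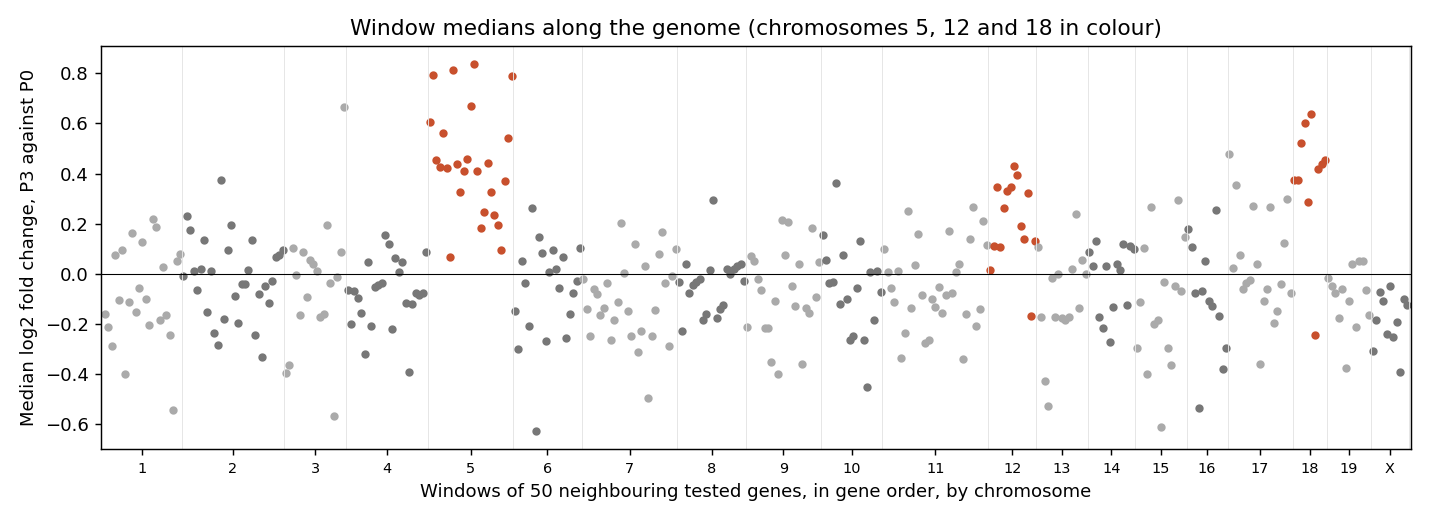
Median log2 fold change of P3 against P0 in windows of 50 neighbouring tested genes, in gene order along each chromosome, with chromosomes 5, 12 and 18 in red. All 25 windows of chromosome 5 and 9 of 10 of chromosome 18 lie above 0, and on the other 17 chromosomes 122 of 333 do.

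Receptors that guide lymphocytes moved both ways. Of 25 tested chemokine and egress receptors, 4 rose, 10 fell and 11 missed the threshold (median -0.76). Ccr4, which follows chemokines of skin and type 2 responses, rose from 21.1 and 19.2 to 135 and 111 CPM (2.61 ± 0.14), and Cxcr6, a receptor of tissue-resident T cells, from 14.3 and 16.0 to 41.7 and 47.2 CPM (1.55 ± 0.13). Cxcr4, which holds cells in marrow and stroma, fell from 307 and 331 to 107 and 103 CPM (-1.60 ± 0.09). Ccr7, the lymph node homing receptor, fell (-2.24 ± 0.14). Ccr7 is itself in the dendritic marker list, where 4 of 6 tested genes were lower, Ccr7 among them. Ccr6 and Cxcr5 (-5.75 ± 0.36 and -4.75 ± 0.45), receptors shared with B cells, fell in the same libraries as the B-cell markers. Ccr9, the receptor of thymus and gut homing, was at 434, 424, 456 and 356 CPM (-0.08 ± 0.14, adjusted p = 0.678). DESeq2 called 2 higher and 5 lower without P0 replicate 1, and 3 higher and 6 lower without P0 replicate 2.

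Chemokine ligands were mostly lower, with 18 of 28 tested lower, 2 higher and 8 not passed (median -2.35). A ligand near 0 in P3 could pass the filter only by being high in P0, so the count leans to falls. All 36 listed ligands, whether tested or not, summed to 408.4, 568.3, 130.8 and 106.5 CPM. Ccl6 (103, 122, 20.4 and 21.6 CPM, -2.42 ± 0.12), Ccl9 (-1.52 ± 0.25) and Ccl8 (66.8, 98.7, 10.6 and 0.614 CPM, -3.88 ± 0.97), chemokines of macrophages, were listed at 0 in both EG7 DMSO libraries and fell with the macrophage markers. Ccl25, the ligand of Ccr9, rose from 8.19 and 7.68 to 20.6 and 19.7 CPM (1.34 ± 0.15) and was at 29.6 and 37.2 CPM in EG7 DMSO. DESeq2 called 13 and 10 lower without P0 replicate 1 and 2.

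Integrins bind matrix and partner cells as pairs of an alpha and a beta chain. Of 25 tested chains, 4 rose, 11 fell and 10 missed the threshold (median -0.64). Itgb7, the beta chain of gut homing integrins, rose from 153 and 159 to 512 and 549 CPM (1.77 ± 0.10). Its best known partner Itga4 fell from 48.2 and 69.0 to 6.01 and 4.83 CPM (-3.44 ± 0.23), and Itgb1, the other partner of Itga4, from 78.5 and 96.3 to 36.2 and 25.8 CPM (-1.50 ± 0.19). Itgb3, of the vitronectin receptor (2.27 ± 0.12), Itga2, of a collagen receptor (8.05, 5.69, 110 and 83.2 CPM, 3.82 ± 0.23), and Itgal, of LFA-1 (0.77 ± 0.11), rose. Itgax, a marker of dendritic cells and macrophages, was lower too (-2.24 ± 0.25). Itga4 and Itgb1 are also expressed by host cells, and Itgb1 was listed at 0 in both EG7 DMSO libraries. DESeq2 kept 4 higher and 6 lower without either P0 library in turn.

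Of 36 tested cytokine receptors of lymphocytes 18 fell, 6 rose and 12 missed the threshold (median -0.52). Il2rb, a signalling chain of the receptors for IL-2 and IL-15, fell from 91.0 and 94.3 to 3.18 and 4.92 CPM (-4.51 ± 0.21, adjusted p = 0.000536). Il10ra, of the IL-10 receptor (-2.53 ± 0.23), Csf2ra and Csf2rb, of the GM-CSF receptor (-2.23 ± 0.21 and -1.42 ± 0.14), and Il1r1, the IL-1 receptor (119, 121, 57.6 and 57.8 CPM, -1.06 ± 0.08), fell. The GM-CSF receptor is typical of myeloid cells, whose markers fell in the same libraries. Il12rb1, of the receptors for IL-12 and IL-23, rose from 35.0 and 27.8 to 102 and 102 CPM (1.70 ± 0.13), Il17re by 1.41 ± 0.12 and Ifngr1, of the interferon gamma receptor, by 0.55 ± 0.09. DESeq2 called 3 higher and 12 lower without P0 replicate 1, and 2 higher and 10 lower without P0 replicate 2.

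Downstream of those receptors, 3 of 23 tested JAK, STAT and SOCS genes rose, 7 fell and 13 missed the threshold (median -0.02). The inhibitors Cish (5.21, 6.45, 0.619 and 0.439 CPM, -3.45 ± 0.33) and Socs1 (-0.99 ± 0.19), both feedback targets of STAT proteins, fell, and Socs2 rose by 1.07 ± 0.19. Stat3 did not pass (-0.21 ± 0.09). DESeq2 called 1 higher and 3 lower without P0 replicate 1, and 2 of each without P0 replicate 2.

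Of 44 tested death receptor, caspase and BCL2 family genes, 5 rose, 13 fell and 26 missed the threshold (median -0.27). Bmf, a BH3-only protein that triggers cell death, fell from 40.0 and 40.1 to 11.2 and 11.9 CPM (-1.79 ± 0.12). The pore formers Bak1 (-0.75 ± 0.10) and Bax (-0.53 ± 0.09), and the protective Bcl2l1 (-0.65 ± 0.10) and Mcl1 (-0.43 ± 0.10) fell. In the main test, members that promote and members that prevent death were thus both lower. The Mcl1 call was lost in edgeR under the replicate block (adjusted p = 0.0555). Bax, Bcl2l1 and Mcl1 kept no DESeq2 call without either P0 library. Mlkl, the effector of necroptosis (0.89 ± 0.14), and the inflammatory caspases Casp4 (1.06 ± 0.20) and Casp1 (0.59 ± 0.12) rose. DESeq2 called 0 higher and 4 lower without P0 replicate 1, and 1 higher and 3 lower without P0 replicate 2.

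Ligands that NK cells read gave 5 rises, 3 falls and 5 below the threshold among 13 tested (median -0.13). Ulbp1, a stress ligand of the activating receptor NKG2D, rose from 43.0 and 42.1 to 108 and 87.6 CPM (1.20 ± 0.13), Clec2i by 0.59 ± 0.08 and Pvr, the ligand of DNAM-1 and TIGIT, by 0.80 ± 0.17. The non-classical class I gene H2-T23, which encodes Qa-1, fell from 99.0 and 124 to 66.9 and 62.8 CPM (-0.78 ± 0.13). H2-Q7 was lower as well (-3.52 ± 0.45), and its reads can be shared with other Q-region genes. DESeq2 called 1 higher and 2 lower without P0 replicate 1, and 1 of each without P0 replicate 2.

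Klr genes, a family of lectin-like receptors chosen after its values were seen, gave 2 higher and 7 lower of 12 tested (1 and 4, and 1 and 3, in DESeq2 without P0 replicate 1 and 2). Klrb1b, an inhibitory lectin-like receptor of NK cells, rose from 8.33 and 7.12 to 168 and 132 CPM (4.28 ± 0.17, adjusted p = 0.00038), while Klra1 fell from 68.1 and 68.6 to 21.1 and 33.6 CPM (-1.32 ± 0.22). Only these 12 of 31 family members passed the filter, and a member near 0 in P3 could pass only by being high in P0, so the count leans to falls. Members of this family are close in sequence, so reads can be shared among them. Cpa3, a carboxypeptidase of mast cells and basophils, rose from 24.0 and 21.0 to 199 and 152 CPM (2.96 ± 0.17). Cpa3 was the only gene of its list that rose, the other 5 tested were lower or did not pass (Hdc 1.18 ± 0.40, adjusted p = 0.0642), and EG7 DMSO cells held 40.2 and 87.6 CPM.

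Genes of the respiratory chain encoded in the nucleus were lower as a group. They were picked by the start of their symbols (Nduf, Uqcr, Atp5 and part of the Cox genes). Assembly factors and other genes with such symbols can be among them. Of 96 tested, 53 (55.2%) fell, 1 rose and 42 missed the threshold, with a median of -0.54 and summed levels of 9434, 8893, 5716 and 6771 CPM. Cox6c, of complex IV, was at 238, 227, 114 and 128 CPM (-0.95 ± 0.10), Uqcrc1, of complex III, at 284, 258, 140 and 148 CPM (-0.91 ± 0.10), and Ndufv2, of complex I, at 96.2, 98.1, 44.8 and 52.1 CPM (-1.003 ± 0.11). Atp5a1, of the ATP synthase, did not pass (-0.17 ± 0.14). Mitochondrially encoded genes were not analysed here. Cytosolic ribosomal proteins had a median of -0.40, with 20 of 86 lower and 1 higher, and their sums, 51630, 49380, 32560 and 44640 CPM, differed more within P3 than within P0. Without P3 replicate 1 the ribosomal count was 26 lower and 6 higher, and without P3 replicate 2 it was 73 lower and 2 higher, so P3 replicate 1 decides its size. DESeq2 called 15 and 21 respiratory genes and 8 and 8 ribosomal genes lower without P0 replicate 1 and 2.

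Both families consist of short transcripts, and length moved with the result. Among genes at 5 CPM or more with a length (92.5% of 12091), the median log2 fold change was -0.30 for 704 genes with up to 1 kb of exon, -0.22 from 1 to 2 kb, -0.066 from 2 to 4 kb, -0.027 from 4 to 8 kb and 0.034 above 8 kb. The median member of the respiratory and ribosomal families had 0.914 and 0.945 kb of exon. The part of length in the families' change was not tested.

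Lipid synthesis genes were lower at the desaturases. Of 29 tested, 11 fell, 3 rose and 15 missed the threshold (median -0.23). Scd1, the desaturase that makes oleate, fell from 792 and 730 to 91.6 and 55.7 CPM (-3.37 ± 0.26), and Scd2 from 852 and 775 to 251 and 395 CPM (-1.33 ± 0.23). Acaca, which commits acetyl-CoA to fatty acids (-0.95 ± 0.12), Fasn, the fatty acid synthase (-0.72 ± 0.18), and Srebf1, their transcriptional activator (-0.61 ± 0.10), fell. Of the cholesterol branch, Cyp51 (0.47 ± 0.10), Sqle (0.42 ± 0.09) and Lss (0.42 ± 0.12) rose and Dhcr7 fell (-0.96 ± 0.10). Scd1 is also abundant in fat cells. The fat cell sums were 478.4, 357.0, 284.4 and 86.2 CPM, with P3 replicate 2 far below P3 replicate 1. DESeq2 called 4 and 6 lower and none higher without P0 replicate 1 and 2.

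Glycolysis genes gave 2 rises, 5 falls and 17 below the threshold among 24 (median -0.32). Hk2, which traps glucose in the cell (129, 120, 177 and 223 CPM, 0.68 ± 0.13), and the lactate exporter gene Slc16a3 (0.98 ± 0.18) rose. The enzyme genes Tpi1 (-0.89 ± 0.20), Eno1 (1942, 1753, 784 and 1175 CPM, -0.92 ± 0.22) and Aldoa (-0.52 ± 0.16) fell. DESeq2 called 1 glycolysis gene higher and 2 and 3 lower without P0 replicate 1 and 2. Heat shock and folding genes gave 10 falls, 1 rise and 15 below the threshold among 26 (median -0.30). Hspa8, the constitutive HSP70, fell from 2617 and 2512 to 1087 and 1218 CPM (-1.15 ± 0.15), and Hsp90ab1 (-0.73 ± 0.17) and the co-chaperone genes Dnaja1 (-0.92 ± 0.09) and Dnajb1 (-0.87 ± 0.10) were lower. Ddit3, which encodes the stress factor CHOP, rose by 1.17 ± 0.26. DESeq2 called 7 heat shock genes lower without either P0 library in turn.

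Tfrc, the transferrin receptor that brings iron into dividing cells, fell from 940 and 1093 to 268 and 219 CPM (-2.06 ± 0.16). Psap, a lysosomal saposin precursor abundant in macrophages, fell from 1386 and 1534 to 522 and 501 CPM (-1.51 ± 0.13). Cathepsins, a family of lysosomal proteases chosen after their values were seen, gave 8 lower and 1 higher of 13 tested, with Ctss (-2.43 ± 0.21) and Ctsb (729, 782, 333 and 362 CPM, -1.12 ± 0.11) among the lower. Ctss was at 0 and 0.0523 CPM in EG7 DMSO and fell with the macrophage markers, while Ctsb was at 167 and 191 CPM there. DESeq2 called 6 cathepsin genes lower without either P0 library in turn.

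Transporters that export drugs gave 4 rises, 6 falls and 5 below the threshold among 15 (median -0.12). Abcb1b, a mouse P-glycoprotein gene, rose from 49.1 and 50.9 to 156 and 184 CPM (1.77 ± 0.11, adjusted p = 0.000934), Abca2 by 0.85 ± 0.10 and Abcg2, the breast cancer resistance protein, by 1.27 ± 0.39 (adjusted p = 0.049). The call of Abcg2 was lost in limma-voom (adjusted p = 0.0594), under the replicate block (0.0861) and in DESeq2 without P0 replicate 1 (0.254) or P3 replicate 1 (0.179). Abcc5, an exporter of nucleotide analogues, fell from 243 and 245 to 57.8 and 51.7 CPM (-2.15 ± 0.10), and the lipid exporter Abcg1 from 108 and 116 to 33.9 and 37.7 CPM (-1.65 ± 0.10). Over all solute carriers, 52 of 272 tested were higher (19.1%) and 58 lower (21.3%), near the shares of all genes (19 and 18, and 20 and 18, in DESeq2 without P0 replicate 1 and 2). Slc30a4, a zinc exporter into vesicles, fell from 109 and 124 to 4.998 and 5.13 CPM (-4.53 ± 0.13), while the zinc importer Slc39a6 was at 687, 658, 1665 and 1423 CPM. DESeq2 called 2 and 3 drug exporters higher and 4 and 3 lower without P0 replicate 1 and 2.

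Growth signalling lists gave 11.5% to 18.2% higher and 15.4% to 22.2% lower, near the shares of all genes. The PI3K, AKT and mTOR list gave 3 higher and 4 lower of 26, with Inpp4b, a phosphatase that ends PI3K signals, at 33.0, 39.0, 110 and 70.0 CPM (1.32 ± 0.23). MAP kinase feedback genes gave 4 higher and 4 lower of 22: the ERK phosphatase Dusp6 rose by 0.91 ± 0.12 and Spry1 by 1.11 ± 0.20, and Dusp4 (-1.03 ± 0.14) and Jun (-1.20 ± 0.16) fell. Cyclins and their partners gave 4 higher and 6 lower of 27. Ccnd1 fell from 178 and 167 to 74.5 and 88.3 CPM (-1.08 ± 0.11) while Ccnd2 rose from 58.6 and 77.1 to 153 and 354 CPM (1.90 ± 0.40), and the pocket proteins Rbl2 (1.17 ± 0.11) and Rb1 (0.62 ± 0.09) rose. Ccnd2 kept no DESeq2 call without either P0 library, and Ccnd1 kept both. Without P0 replicate 1 DESeq2 called 1 higher and 2 lower in the PI3K list, 2 higher and 0 lower in the MAP kinase list and 1 of each among cyclins. Without P0 replicate 2 it called 1 higher and 2 lower in each of these lists.

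Polycomb and histone deacetylase lists gave counts near the shares of all genes. Polycomb and trithorax genes gave 7 higher and 5 lower of 32, with Mtf2, a partner of the polycomb complex PRC2, at 284, 309, 152 and 148 CPM (-0.98 ± 0.09) and the demethylase gene Kdm6b up by 0.71 ± 0.11. Histone deacetylases and sirtuins gave 4 higher and 3 lower of 18, with Hdac9 at 80.6, 82.6, 35.0 and 33.0 CPM (-1.26 ± 0.09). In the TGF-beta and BMP list 5 were higher and 8 lower of 30, with the activin receptor Acvr2a (13.96, 16.5, 49.7 and 59.1 CPM, 1.83 ± 0.15) higher and Acvr1 (-1.07 ± 0.13) lower. Arid4b, a subunit of a histone deacetylase complex outside these lists, rose from 62.9 and 64.5 to 609 and 430 CPM (3.03 ± 0.19) and was chosen after its values were seen. Histone genes gave 15 lower and 2 higher of 70 tested (median -0.42), with H2az1 (-0.82 ± 0.12) and H4c3 (-1.04 ± 0.20) among the lower and sums of 9258, 8218, 5737 and 7807 CPM. Without P3 replicate 1 the histone count was 20 lower and 7 higher, and without P3 replicate 2 it was 52 lower and 2 higher. Without P0 replicate 1 DESeq2 called 1 lower and 0 higher among polycomb genes, 1 and 0 among deacetylases, 2 and 2 in the TGF-beta list and 3 and 1 among histones. Without P0 replicate 2 it called 1 and 1, 1 and 0, 2 and 2, and 8 and 0.

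Hox and potassium channel genes moved both ways, the potassium channel genes in counts near the shares of all genes. Hox genes gave 10 higher and 3 lower of 25 tested, 4 and 2 under the replicate block, and 4 and 0, and 3 and 0, in DESeq2 without P0 replicate 1 and 2. Hoxd4 was at 20.4, 17.8, 57.8 and 59.8 CPM (1.62 ± 0.11), and Hoxd8 (1.17 ± 0.14), Hoxd3 (1.59 ± 0.29) and Hoxc5 (1.63 ± 0.23) rose, while Hoxa10 (-1.50 ± 0.34) and Hoxa11 (-1.13 ± 0.31) fell. Only 8 of the 359 vomeronasal receptor genes could be tested, and 7 were higher. A gene near 0 in P0 could pass the filter only by being high in P3, so this count carries no weight on its own. Potassium channel genes gave 11 higher (21.6%) and 8 lower (15.7%) of 51, against 18.8% and 19.9% of all genes. DESeq2 called 5 higher and 2 lower without P0 replicate 1, and 5 and 0 without P0 replicate 2. Kcnma1, a calcium-gated channel, was at 68.8, 65.2, 471 and 306 CPM (2.54 ± 0.22). Kcna3, the main voltage-gated channel of T cells, was at 38.9, 41.3, 119 and 87.2 CPM (1.36 ± 0.17). Collagen genes gave 17 lower and 2 higher of 35 and fell with the fibroblast markers (8 and 9 lower in DESeq2 without P0 replicate 1 and 2). Col1a1, Col1a2 and Col3a1 are in both lists, and the fibroblast markers called lower were Col1a1 and Col1a2. The fall of both lists is thus in part that of the same genes. Col3a1 itself was at 828, 937, 268 and 15.1 CPM and did not pass (adjusted p = 0.118).

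**Figure D5:**
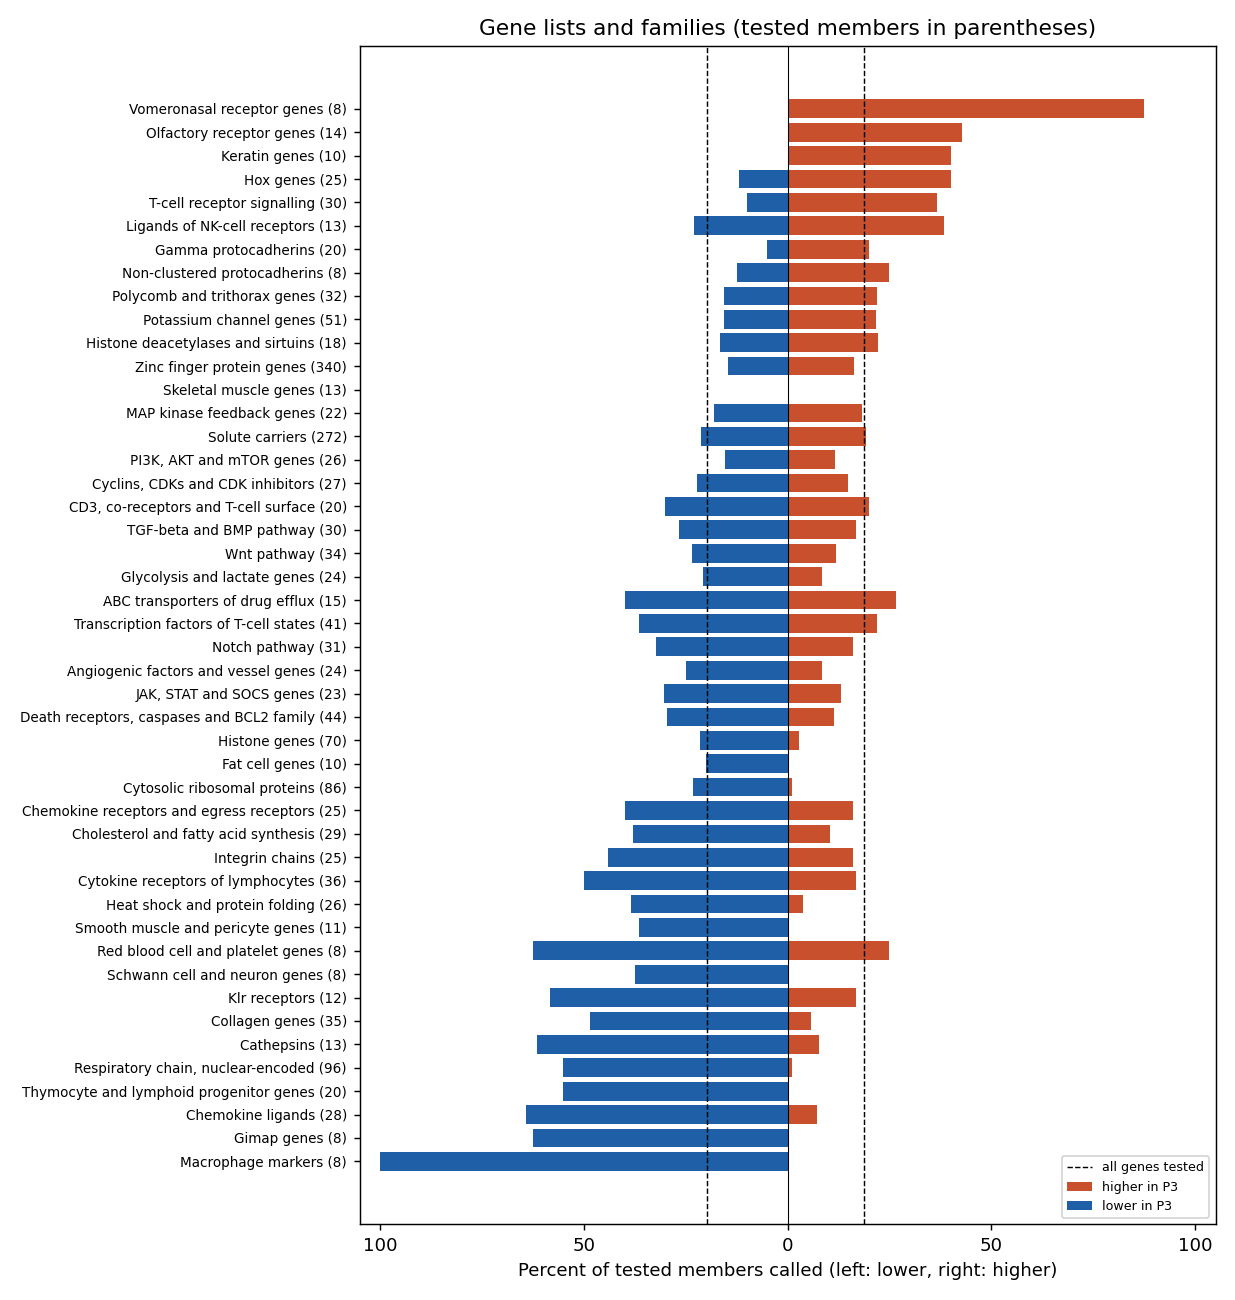
Percent of the tested members of each list or family called higher (red, right) and lower (blue, left) in P3, with the number tested in parentheses and the shares of all genes, 18.8% and 19.9%, as dashed lines. Bars are ordered by the difference of both shares, with macrophage markers, Gimap genes, chemokine ligands, progenitor genes and the respiratory chain at the bottom. The sensory receptor families at the top hold the few members that passed the filter, so their bars carry no weight.

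Classes of RNA moved apart. Of 2997 tested long non-coding RNAs 1018 (33.97%) were higher and 264 (8.81%) lower, with a median of 0.66, while of 14152 protein-coding genes 2144 (15.1%) were higher and 3509 (24.8%) lower, with a median of -0.13. Among genes at a mean of 5 CPM or more 482 of 786 long non-coding RNAs were higher and 45 lower, with a median of 0.80. Malat1, an RNA of nuclear speckles, was at 3785, 4729, 7217 and 7035 CPM (0.74 ± 0.21), and Kcnq1ot1, an imprinted antisense RNA, at 376, 374, 731 and 753 CPM (0.98 ± 0.10). Without Malat1 the tested long non-coding RNAs summed to 33770 and 31440 CPM in P0 and 36650 and 37670 CPM in P3. Whether reads from unspliced or antisense transcripts fall on these rows was not tested, and the labels do not say whether counting used strand.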

How the data were processed

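Bulk RNA sequencing of total RNA was deposited as 1 table per model. Per the submitters' processing notes, the authors used fastp, Trim Galore, STAR and featureCounts. The notes name GRCh38 and mm10 for all samples alike. The EL4 table held raw counts per gene as deposited, whole numbers without normalisation, for 50559 entries. The EG7 table as deposited by the authors held estimated counts, a few not whole, which were scaled to CPM and not tested. From the EL4 counts, genes with enough reads were kept (filterByExpr), scaled by TMM and tested with edgeR 4.0.16 (quasi-likelihood, 2 against 2 libraries, 2 residual degrees of freedom, R 4.3.3), with Benjamini-Hochberg adjustment over all 19993 genes tested. CPM uses TMM library sizes. The steps were tested on simulated data. DESeq2 1.42.0, limma-voom 3.58.1, other scalings and filters, a replicate block and each library left out were alternatives.

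Genes named are the 20 largest changes per direction without overlap and at 5 CPM or more, the 15 largest gains and losses in CPM, and up to 5 called per direction and 3 of highest level per list. Exceptions are marked. The comparison, the lists and the markers were chosen with earlier results of these data known. Symbols, chromosomes and gene order come from RefSeq (48908 entries matched) and exon lengths from GENCODE. Some named genes are not reported here.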

Additional observations from a re-analysis of the deposited data

How the results depend on the processing

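With median-ratio size factors in edgeR the counts of higher and lower genes were 3744 and 3954, with DESeq2 3150 and 3736, and with limma-voom 3731 and 4171. Leaving out P0 replicate 1 or P0 replicate 2 gave 0 edgeR calls, and leaving out P3 replicate 1 or 2 gave 4704 and 5374 higher and 5459 and 5912 lower. DESeq2 with 1 library left out, a setting added after seeing the data, gave 1032 higher and 1269 lower without P0 replicate 1, 1042 and 1164 without P0 replicate 2, 2412 and 3370 without P3 replicate 1, and 2630 and 3719 without P3 replicate 2. Calls with an absolute log2 fold change above 1 numbered 2073 higher and 2166 lower. Same-numbered libraries did not deviate together (r = -0.0374), so the numbers were not read as pairs, and the replicate block gave 2537 higher and 2953 lower. The median log2 fold change of chromosome 5 was 0.3955 among genes at 5 CPM or more, 0.3854 among genes expressed in EG7 cells (a set also added after seeing the data) and 0.4196 to 0.4526 with 1 library left out. That of chromosome 12 ranged from 0.1196 to 0.3252 and that of X from -0.2087 to -0.1569 with 1 library left out, and chromosome 18 was at 0.4366 among genes expressed in EG7 cells. Of the 194 called genes named in the text, 191 to 193 kept their call with the other size factors, DESeq2 or limma-voom, 181 under the replicate block, and 148 and 155 in DESeq2 without P0 replicate 1 and 2; none changed direction. Calls were lost for Aldoa with the other size factors, for Lss with DESeq2 and for Abcg2, Grik2 and Myo18b with limma-voom. The replicate block lost Abcg2, Aldoa, Cd4 (adjusted p = 0.0512), Ctnnb1, Fasn, Hsp90ab1, Lss, Malat1, Mcl1, Myo18b, Smad4, Sqle and Thy1. Of the 12 named genes that were not called, 6 changed sign in some setting. With 1 library left out, edgeR gave -0.0118 to 0.0838 for Bcl11b, -0.254 to 0.0777 for Ccr9, -0.194 to 0.0823 for Cd3e, -0.00972 to 0.188 for Notch2, -0.0567 to 0.220 for Tcf7 and -1.98 to 5.11 for Ttn. DESeq2 gave Bcl11b -0.0270 without P0 replicate 2 and -0.00537 without P3 replicate 1, and Cd3e 0.000389 without P0 replicate 1 and 0.0802 without P3 replicate 1. It gave Tcf7 -0.0347 without P0 replicate 2 and -0.0612 without P3 replicate 2. It also gave Ccr9 0.0731 and Notch2 -0.0143 without P3 replicate 2, and Ttn -1.99 without P3 replicate 1.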
